A study of Sminthopsis crassicaudata with 9 samples.

Results

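The fibroblast growth factor (FGF) ligands and receptors described here are 10 genes chosen by name for their roles in the face, and 8 of them have a row under their symbol among the 21703 gene models of the count table. These are 5 ligands (FGF9, FGF7, FGF10, FGF18 and FGF2) and 3 receptors (FGFR1, FGFR2 and FGFR4). FGF8 and FGFR3 have no row under those symbols and were not analysed here. For each gene, RNA was read from the counts of 3 face libraries, and the histone marks H3K4me3 and H3K27ac were read from peaks found in both of 2 chromatin pools, at the transcription start site (TSS) and up to 200 kb to either side of it.

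FGF ligands are secreted proteins that bind receptor tyrosine kinases together with heparan sulphate, and the signal runs through the adaptor FRS2, RAS and the MAP kinases to transcription factors of the ETV family and to feedback inhibitors such as the Sprouty proteins. In the mouse and chick face the layers speak to each other through them. FGF8 and FGF9 are made by epithelium and act on receptor forms of the mesenchyme, while FGF7 and FGF10 are made by mesenchyme and act on the epithelial form of FGFR2. H3K4me3 marks active or poised promoters, and H3K27ac marks active promoters and enhancers, so an H3K27ac peak that shares no base with an H3K4me3 peak (called H3K27ac-only below) is a common definition of a candidate enhancer.

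All samples were facial tissue of the fat-tailed dunnart (Sminthopsis crassicaudata), a small marsupial that is born with a functional mouth but an otherwise embryonic body. The young were collected on the day of birth and carried no treatment or engineered allele. Chromatin came from 2 pools, of 26 and 27 heads of young under 24 hours old, and each mark was precipitated from both pools. RNA came from 3 libraries (FP1, FP2 and FP3) of 2 young each. With a single tissue and stage, the comparisons below are between genes, and they are descriptions without a p-value: an exact paired test over 3 libraries cannot go below p = 0.25. The gene models were carried over from the Tasmanian devil, so a start site is the outer end of the first exon of such a model.

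The RNA libraries held between 16096971 and 17419099 counts on genes, and the pools gave 108146 H3K4me3 and 148724 H3K27ac peaks that were found in both. Markers of the tissues a face should hold were present. The summed TPM (transcript counts corrected for exon length and scaled to the same total in each library) of 5 facial mesenchyme markers ran between 412 and 566, that of 5 epithelial markers between 506 and 616, and that of 3 skeletal muscle markers between 5220 and 7311. Cartilage markers summed to between 46.2 and 116, bone markers to between 19.6 and 38.0, endothelial markers to between 35.5 and 47.3, blood markers to between 169 and 285 and neuronal markers to between 59.0 and 72.9. Brain markers summed to at most 2.63 and eye markers to at most 4.36, with RAX, which defines the early eye field, at 0 in every library. FP2 carried a shift of scale: the median expressed gene lay 0.28 (log2) above the mean of the other libraries in TPM there, and 61.2% of 12250 expressed genes had their highest TPM in FP2. With TMM factors, which remove such a shift, the median was -0.01 and the share 32.1%.

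FGF9 is the only member classed as epithelial here that has a row. It lay at 6.19, 8.65 and 7.98 TPM in FP1, FP2 and FP3, a mean of 7.61 ± 1.27 TPM (SD, n = 3). The 95% Poisson intervals of FP1 (5.17 to 7.37 TPM) and FP2 (7.31 to 10.2 TPM) overlap only at their edges. Its gene model has 3 exons and runs from base 26628735 to 26668458 of scaffold00017_pilon_pilon in the assembly made by the study, on the minus strand. In a bulk sample, fewer cells of a type and less RNA per cell cannot be told apart, and this holds for every level below.

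FGF7, also called keratinocyte growth factor for its action on epithelium, had 4.63, 9.19 and 5.23 TPM in FP1, FP2 and FP3 (6.35 ± 2.48 TPM, SD, n = 3). FP2 alone stood high, and its 95% Poisson interval of 8.01 to 10.5 TPM did not reach those of FP1 (3.88 to 5.48) and FP3 (4.39 to 6.19). With TMM factors the FP2 value was 8.03, against 4.77 and 5.81 in FP1 and FP3, so it remained the highest. FGF7 (scaffold00011_pilon_pilon, 726895 to 816413, plus strand) lies inside the body of FAM227B on the other strand. The authors counted with strand, and FAM227B had 0.0432 ± 0.0747 TPM.

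FGF10, which in the mouse is needed for the limbs, lungs, palate and salivary glands, had 4.73, 6.71 and 3.55 TPM in FP1, FP2 and FP3 (5.00 ± 1.59 TPM, SD, n = 3). It has the longest body of the 8 genes, 145 kb with 5 exons, on the plus strand of scaffold00131_pilon_pilon between 1115091 and 1260023. FP3 was the lowest library for FGF10 but not for FGF7, so the 2 mesenchymal ligands did not share an order of libraries.

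FGF18, a ligand of mesenchyme and forming skeleton in the mouse, was the most abundant of the 5 ligands, at 10.8, 14.96 and 13.5 TPM in FP1, FP2 and FP3 (13.1 ± 2.1 TPM, SD, n = 3). In each library it exceeded FGF9, FGF7, FGF10 and FGF2, and its lowest value lay above their highest. Its model (scaffold00006_pilon_pilon, 22202089 to 22246035, minus strand, 5 exons) shares its scaffold with FGFR4.

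FGF2, a broadly made ligand without a classical secretion signal, had the lowest mean of the 8 genes and the widest spread. It had 6, 45 and 18 counts, or 0.806, 7.34 and 2.69 TPM in FP1, FP2 and FP3 (3.61 ± 3.37 TPM, SD, n = 3). Its coefficient of variation over libraries was 93.1%, above that of 98% of the 2076 genes whose mean lay between 2 and 6 TPM, where the median was 31.6%. The Poisson intervals of FP1 (0.296 to 1.75 TPM) and FP2 (5.36 to 9.83 TPM) do not meet, so the spread is wider than counting error. Without FP2 the mean is 1.75 TPM. The exon model behind these counts is short, 821 bases in 4 exons, within a body of 61.0 kb on scaffold00005_pilon_pilon (24462002 to 24523013, minus strand).

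Among the marker lists, cartilage, bone, blood, epithelial and neuronal markers had their highest summed TPM in FP2, where FGF2 and FGF7 stood high. With TMM factors this held for cartilage, bone and blood, while the epithelial and neuronal sums were highest in FP3. The 3 cartilage markers SOX9, COL2A1 and ACAN summed to 49.5, 116 and 46.2 TPM in FP1, FP2 and FP3, and 2 of the 3 were expressed in every library. With TMM factors the cartilage sum was 51.0, 101 and 51.4. COL2A1, the main collagen of cartilage, had 36.4, 90.9 and 27.6 TPM and made up most of the sum. SOX9 had 12.1, 19.0 and 17.7 TPM in FP1, FP2 and FP3, so it was nearly as high in FP3 as in FP2. ACAN had 0.997, 6.10 and 0.955 TPM. Blood markers summed to 174, 249 and 221 and bone markers to 31.9, 33.2 and 21.7 with TMM factors in FP1, FP2 and FP3. The part of these tissues in the FGF2 and FGF7 values was not tested.

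The receptors FGFR1 and FGFR2 were far more abundant than any of the 5 ligands, and FGFR4 was not. FGFR1, the main receptor of mesenchyme in the mouse face, had 85.8, 103 and 61.7 TPM in FP1, FP2 and FP3 (83.4 ± 20.7 TPM, SD, n = 3). Its 18 merged exons lie between 414558024 and 414625785 of scaffold00002_pilon_pilon, on the minus strand. Its mean exceeds that of 91.6% of all genes with a count.

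FGFR2, whose epithelial and mesenchymal splice forms bind different ligands, had 62.0, 92.3 and 69.1 TPM in FP1, FP2 and FP3 (74.5 ± 15.9 TPM, SD, n = 3). It spans 115 kb with 19 merged exons on scaffold00028_pilon_pilon (16414727 to 16529457, minus strand). The counts are per gene, so the splice forms cannot be told apart. Both factors that drive the epithelial form in mouse and human were present: ESRP2 had 302, 295 and 342 TPM and ESRP1 had 21.8, 84.7 and 53.2 TPM in FP1, FP2 and FP3.

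FGFR4, a receptor found in muscle progenitors of mouse and chick, had 8.86, 12.7 and 12.1 TPM in FP1, FP2 and FP3 (11.2 ± 2.07 TPM, SD, n = 3). This lay under FGF18 in 3 of 3 libraries, and well under the other receptors. Its body is compact, 19.5 kb with 20 merged exons on scaffold00006_pilon_pilon (12206777 to 12226299, minus strand).

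**Figure D1:**
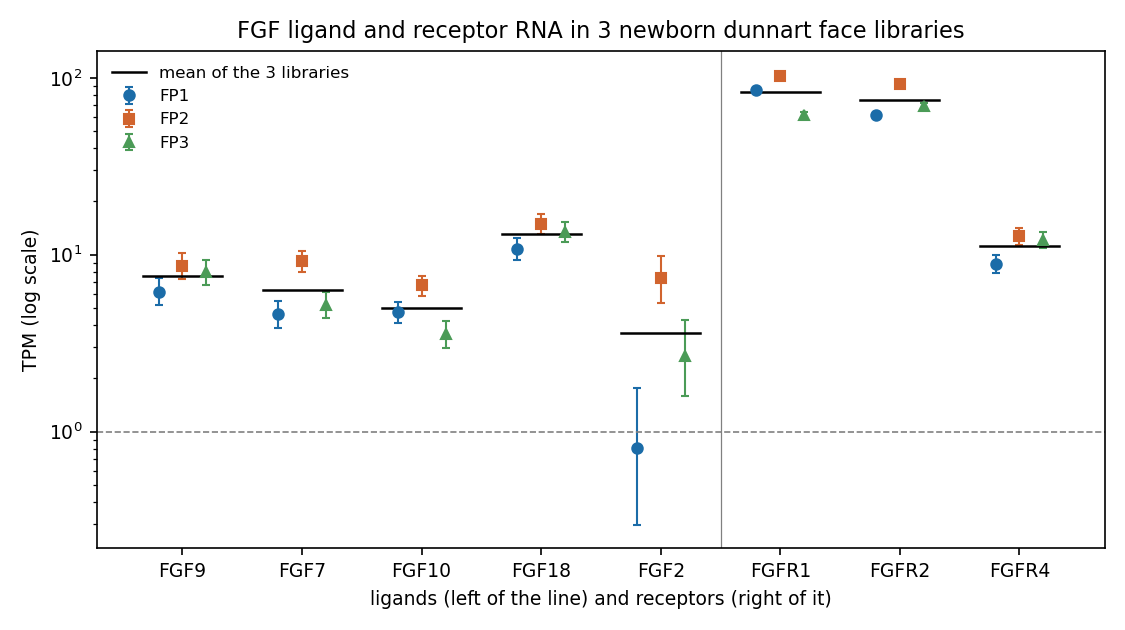
TPM on a log axis for the 5 ligands (left of the grey line) and the 3 receptors (right of it) in the libraries FP1, FP2 and FP3, with 95% Poisson intervals of the counts as bars, the mean as a black line and 1 TPM as a dashed line. FGFR1 and FGFR2 sit between 61.7 and 103 TPM, above the other 6 genes, and FGF2 spreads from 0.806 to 7.34 TPM.

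Ordered by mean TPM, the genes ran FGFR1, FGFR2, FGF18, FGFR4, FGF9, FGF7, FGF10 and FGF2. Only 2 of the 7 steps in this order separated genes whose libraries did not overlap. FGFR2 averaged 5.69 times FGF18, and FGFR4 averaged 1.48 times FGF9. Elsewhere neighbours overlapped: FGFR1 exceeded FGFR2 in 2 of 3 libraries, and FGF9 exceeded FGF7 in 2 of 3. FGF18 and FGFR4 kept the same order in 3 of 3 libraries although their ranges cross.

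A gene was called expressed where it passed 1 TPM in all 3 libraries. This held for 7 of the 8 genes, against a background of 56.5% of all genes with a count, and FGF2 missed it through FP1. The median over the 8 genes was 9.42 TPM, against 3.83 TPM over all genes and 20.6 TPM over expressed genes. All 8 genes had their highest TPM in FP2, beside the 61.2% of expressed genes that did so. With TMM factors FP2 was highest for 5 of them and FP3 for 3, so the order of libraries for a single gene rests in part on the scaling. Ratios between genes of the same library do not depend on it.

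Set against each other within a library, the epithelial member FGF9 was lower than the mesenchymal members FGF7 and FGF10 together. FGF8, the other member classed as epithelial, has no row, and all further ligands are in neither class. FGF9 had 6.19, 8.65 and 7.98 TPM in FP1, FP2 and FP3, and FGF7 and FGF10 together had 9.35, 15.9 and 8.79 TPM. The ratio of epithelial over mesenchymal ligand was 0.662, 0.544 and 0.908, with a mean log2 ratio of -0.54 ± 0.37 (SD, n = 3). It lay under 1 in 3 of 3 libraries. This compares 1 gene with a sum of 2: FGF9 alone exceeded FGF10 in 3 of 3 libraries, by 1.31, 1.29 and 2.25 times, and exceeded FGF7 in FP1 and FP3 (1.34 and 1.53 times) but not in FP2 (0.941 times). With FGF18 counted among the mesenchymal ligands the mean log2 ratio was -1.67.

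The receptors together had 157, 208 and 143 TPM in FP1, FP2 and FP3, and the 5 ligands 27.2, 46.9 and 32.9 TPM. Receptor RNA was thus 5.76, 4.44 and 4.34 times ligand RNA for these genes. FGFR3, FGF8 and the ligands outside these 5 are in neither sum. The ratios, and the receptor shares that follow, are therefore not those of the whole family. FGFR1 held 54.8%, 49.5% and 43.2% of the receptor TPM (49.1 ± 5.81%, SD, n = 3), FGFR2 held 39.6%, 44.4% and 48.4%, and FGFR4 held 5.66%, 6.12% and 8.47%. FGFR1 over FGFR2 was 1.38, 1.11 and 0.892, so their order turned in FP3. The 5 mesenchyme markers, all 5 expressed, summed to 566, 502 and 412 TPM in FP1, FP2 and FP3, and the 5 epithelial markers, all 5 expressed, to 506, 616 and 589 TPM. The FGFR1 share was lowest in FP3, and so was the mesenchyme sum in TPM, but with TMM factors that sum was 583, 438 and 457 and lowest in FP2. TWIST1, the largest of the mesenchyme markers, had 359, 285 and 217 TPM in FP1, FP2 and FP3. PRRX1 was also lowest in FP3, while PDGFRA was lowest in FP1 and MSX1 and DLX5 in FP2. The part of the tissue mix in the receptor shares was not tested.

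The rest of the pathway was read from lists of genes grouped by role. Of 16 other FGF ligands 14 had a count, and 6 of these were expressed, at a median of 0.995 TPM. The highest means were those of FGF11 (12.3, 14.6 and 10.5 TPM in FP1, FP2 and FP3) and FGF12 (6.70, 12.01 and 8.28 TPM), both of the intracellular FGFs that bind sodium channels and are not secreted. The lowest means were those of FGF19, a bile acid regulated hormone, listed at 0 in FP2 and FP3 and at 0.468 TPM in FP1, and FGF23, a phosphate hormone, at a mean of 0.134 TPM. FGF11 and FGF12 were the only ones of the 14 with a higher mean than FGF9, and none had a higher mean than FGF18. In FP1 FGF11 lay above FGF18, at 12.3 TPM against 10.8 TPM.

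Co-receptors and ligand carriers were well represented, with 16 of 18 genes expressed at a median of 16.2 TPM. The heparan sulphate proteoglycans GPC4 (119, 159 and 105 TPM) and SDC3 (82.6, 134 and 62.9 TPM) had the highest means, with values in the order FP1, FP2 and FP3. GPC1, at 65.7 TPM, lay above SDC3 in FP3. KL and KLB, the Klotho co-receptors that hormone-like FGFs need, were the lowest, at means of 0.0546 and 0.215 TPM. All 17 adaptors and kinases with a count were expressed, at a median of 33.1 TPM, between HRAS (410, 253 and 275 TPM) and MAPK3 (131, 148 and 121 TPM) at the top and BRAF (6.74, 8.68 and 6.52 TPM) and FRS3 (7.12, 6.81 and 4.57 TPM) at the bottom.

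Of 16 targets and feedback inhibitors, 14 were expressed, at a median of 21.5 TPM. The Sprouty genes SPRY2 (47.6, 63.0 and 48.9 TPM) and SPRY1 (43.2, 64.6 and 44.5 TPM in FP1, FP2 and FP3) had the highest means. The related SPRED1 was listed at 0 in every library and SPRED3 averaged 0.657 TPM.

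**Figure D2:**
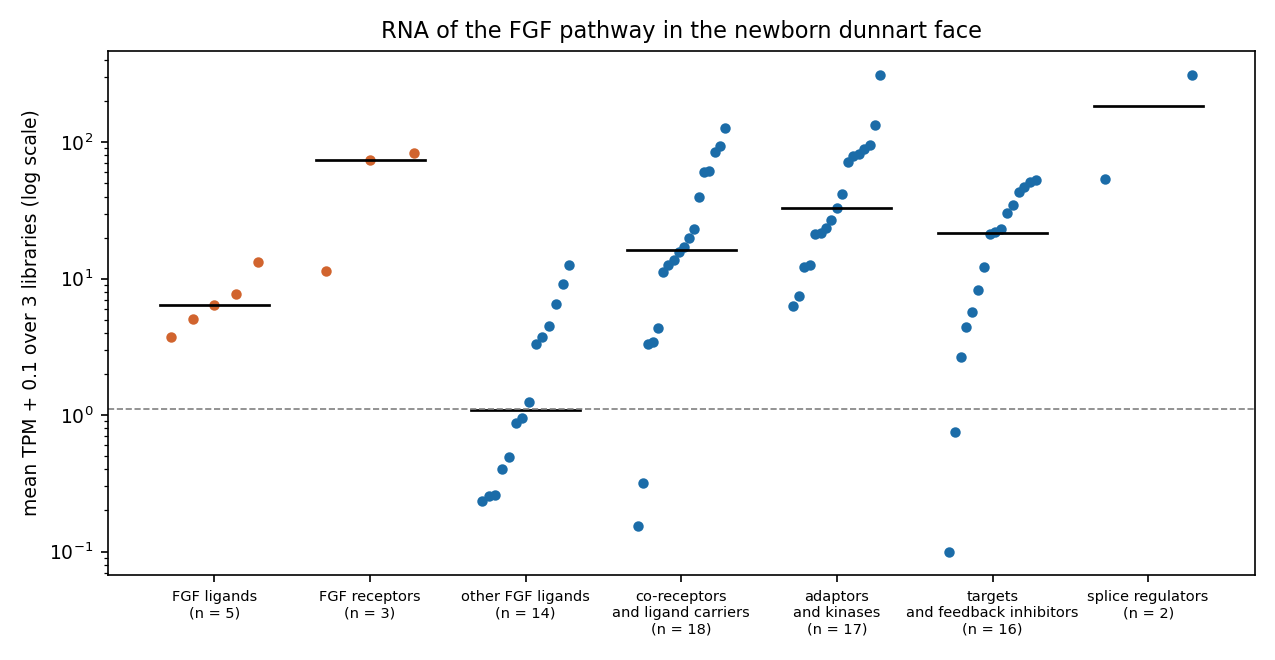
Mean TPM plus 0.1 over the 3 libraries on a log axis, 1 point a gene, for the ligands and receptors described (orange) and for the other genes of the pathway by role (blue), with the median of each list as a black line and 1 TPM as a dashed line. The 3 receptors and the 17 adaptors and kinases all lie above 5 TPM, while the other ligands have a median of 0.995 TPM.

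Every one of the 8 start sites was covered by a peak of both marks in each pool taken alone. For H3K27ac at FGF9 in pool 2, the covering peak was a small one of 328 bases and 3.94-fold, and the peak matched to pool 1 began upstream of the start site. A peak within 1 kb of the start site was found at 67.7% of all gene models for H3K4me3 and at 71.5% for H3K27ac, beside 8 of 8 here for each mark. What set the genes apart was the height of the peak, given as fold enrichment over input.

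FGFR1 had the highest start site peak for H3K4me3, at 89.0-fold in pool 1 and 87.0-fold in pool 2. FGFR2 followed at 72.1-fold and 77.2-fold. These exceed the median of 52.7-fold over expressed genes with such a peak, and the pools differ by less than the gap to the next gene. For H3K27ac, FGFR1 had 69.1-fold and 49.5-fold and FGFR2 had 30.02-fold and 40.4-fold in pools 1 and 2, where the median over expressed genes was 30.2-fold.

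FGF18 had 50.9-fold and 60.8-fold for H3K4me3 in pools 1 and 2. FGF2 had 34.4-fold and 64.9-fold, which is the widest gap between pools at a start site here. The ratio of pool 2 over pool 1 was 1.89 for it, inside the range from 0.769 to 2.56 that holds the middle 90% of H3K4me3 peaks of over 20-fold. FGF2 is thus marked about as highly as FGF18, while its mean RNA level was the lowest of the 8 genes. For H3K27ac it had 36.7-fold and 35.6-fold, against 22.0-fold and 20.6-fold at FGF18.

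The remaining start sites were lower. FGFR4 had 22.1-fold and 25.1-fold for H3K4me3 and 14.9-fold and 14.98-fold for H3K27ac in pools 1 and 2. FGF9 had 16.3-fold and 15.2-fold for H3K4me3 and 17.9-fold and 13.1-fold for H3K27ac, where the pool 2 value is that of the matched upstream peak. FGF10 had 18.6-fold and 26.1-fold for H3K4me3 and 14.2-fold and 13.5-fold for H3K27ac. The H3K27ac range of FGF9 over both pools takes in those of FGFR4 and FGF10.

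FGF7 was the weakest at its start site, with 5.07-fold and 7.83-fold for H3K4me3 and 7.79-fold and 10.4-fold for H3K27ac in pools 1 and 2. Both its values lay under those of every other member for the same mark, apart from the small pool 2 H3K27ac peak over the FGF9 start site. The H3K4me3 peak was also narrow, 406 and 458 bases in pools 1 and 2. At FGFR1 it was 4675 and 4588 bases, and at FGF18 4304 and 6014 bases. A second H3K4me3 peak of FGF7, 364 bases long at 1.02 kb downstream, had 6.02-fold and 4.24-fold. FGF7 RNA was nonetheless close to that of FGF9 and FGF10, whose start sites were marked more highly.

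FGF9 had 2 H3K4me3 peaks within 1 kb by the pool 1 intervals. The peak over the start site reached 2882 and 3987 bases in pools 1 and 2. Another had 29.3-fold and 18.9-fold over 4641 and 3490 bases, and began 749 bases downstream in pool 1. In pool 2 it ran from base 26663038 to 26666527, farther than 1 kb from the start site at base 26668458. The start site of FGF18 lies 0.349 kb from that of LOC116421669 on the other strand, which was listed at 0 TPM, so its peak covers both. In pool 2 a single FGF18 peak also spans the H3K4me3 peak called 4.2 kb downstream in pool 1 (6.18-fold there), which therefore carries the pool 2 value of 60.8-fold.

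**Figure D3:**
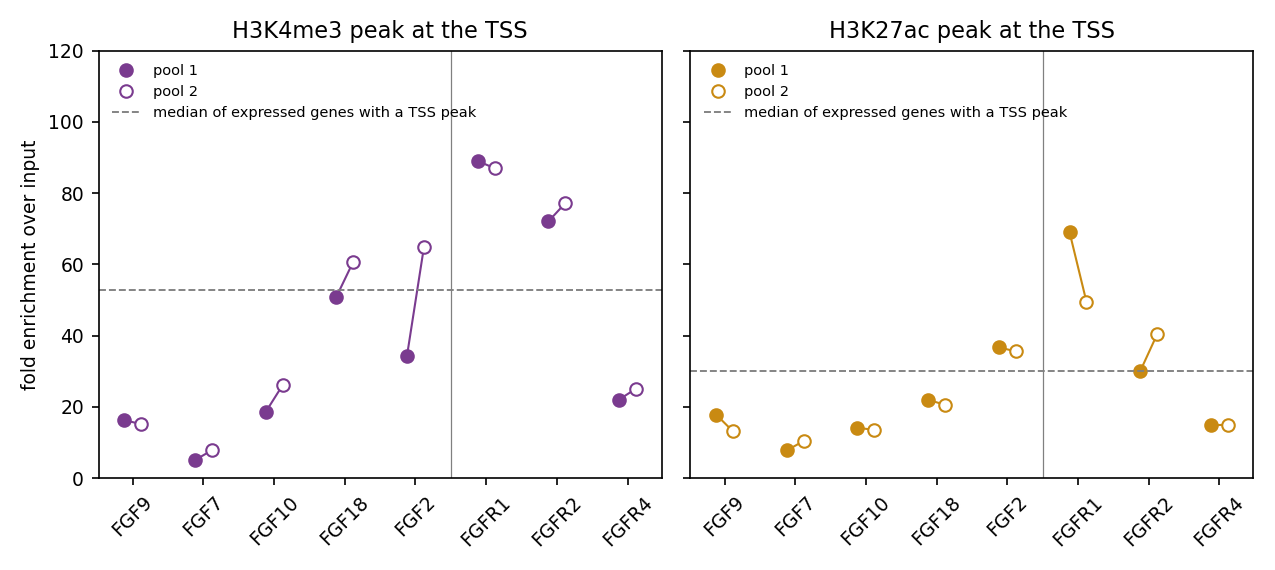
Fold enrichment over input of the peak at each start site (pool 2 of FGF9 for H3K27ac is the matched peak just upstream), H3K4me3 on the left and H3K27ac on the right, with pool 1 as filled and pool 2 as open points and the median of expressed genes with a start site peak as a dashed line (52.7-fold and 30.2-fold). FGFR1 is highest for both marks (89.0-fold and 87.0-fold, 69.1-fold and 49.5-fold) and FGF7 lowest (5.07-fold and 7.83-fold, 7.79-fold and 10.4-fold).

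Within 200 kb of the 8 start sites lay 125 H3K4me3 and 207 H3K27ac peaks found in both pools, of which 97 were H3K27ac-only. The medians per gene were 15, 30 and 9.5, against 16, 27 and 11 over all gene models. At least 1 H3K27ac-only peak was found for 8 of 8 genes, beside 97.7% of all gene models, which is close to that background. The numbers differed widely from gene to gene.

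FGF9 had 5 H3K4me3, 4 H3K27ac and 1 H3K27ac-only peaks, FGF7 had 8, 16 and 9, and FGF10 had 12, 7 and 1. FGF18 had 32, 40 and 7, and FGF2 had 18, 38 and 21. FGFR1 had 22, 42 and 23, FGFR2 had 9, 32 and 25, and FGFR4 had 19, 28 and 10. For H3K27ac, the epithelial ligand FGF9 and the mesenchymal ligand FGF10 had the fewest peaks, and FGF7 lay between them and the rest. For H3K4me3 the order was another: FGF9 again had the fewest, but FGF10 had more than FGF7 and FGFR2. Among all gene models, 4.29% had fewer H3K27ac peaks than FGF9 and 12.3% fewer than FGF10.

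The low H3K27ac counts were present in each pool. FGF9 had 9 and 7 H3K27ac peaks in pools 1 and 2 taken alone, and FGF10 had 11 and 12. FGFR1 had 51 and 48, FGFR2 had 51 and 41, and FGF18 had 47 and 41. FGF7, with 22 and 23, again lay between these sets in both pools.

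**Figure D4:**
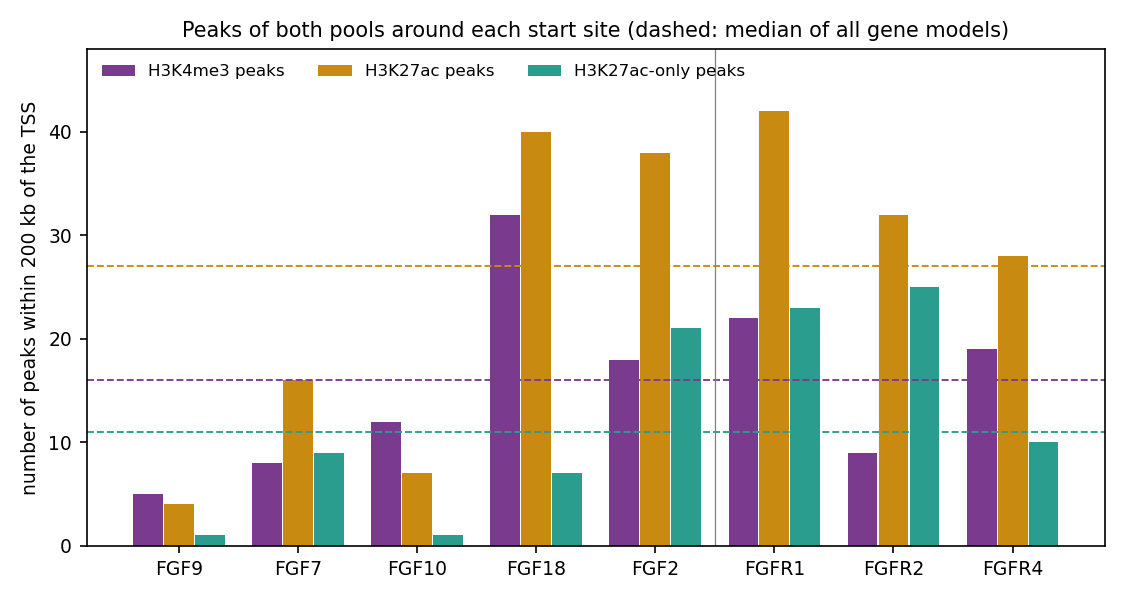
Number of peaks of both pools within 200 kb of each start site, as bars for H3K4me3, H3K27ac and H3K27ac-only peaks, with the medians of all gene models (16, 27 and 11) as dashed lines. FGF9 and FGF10 have 4 and 7 H3K27ac peaks, while FGFR1 has 42 and FGF18 40.

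The mix of marks also differed. Of the H3K27ac peaks near FGFR2, 78.1% shared no base with H3K4me3, which exceeds 96.0% of gene models with an H3K27ac peak, and the share was 64.7% and 58.5% in pools 1 and 2 alone. Near FGF18 it was 17.5%, with 23.4% and 17.1% in the pools alone. Over all peaks of the genome the share was 46.5%, and the median over gene models with an H3K27ac peak was 43.9%. FGFR1 (54.8%), FGF2 (55.3%) and FGF7 (56.2%) lay above both, and exceeded 71.4%, 72.1% and 73.8% of such gene models. FGFR4, at 35.7%, lay below both and exceeded 32.9%. FGF9 and FGF10 (25.0% and 14.3%) rest on 4 and 7 peaks.

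FGFR2 stood in an open stretch with no other start site within 200 kb. Its H3K27ac-only peaks lay 17 upstream and 8 downstream, 6 of them in its own introns and 19 between genes. The highest was 25.0 kb upstream (scaffold00028_pilon_pilon, 16554477 to 16555046), with 8.48-fold and 6.86-fold in pools 1 and 2. The highest intronic peak, 19.0 kb downstream, had 5.73-fold and 6.84-fold. Higher than these was an H3K27ac peak 6.68 kb upstream that shared bases with H3K4me3, at 14.8-fold and 9.22-fold.

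FGFR1 carried the highest H3K27ac-only peak of all 97. It lay 17.6 kb upstream between genes (scaffold00002_pilon_pilon, 414643403 to 414644604), was 1202 bases long and had 13.1-fold and 12.3-fold in pools 1 and 2. The median of the 97 was 4.47-fold, and that of all such peaks of the genome 4.22-fold. A further 16 H3K27ac-only peaks lay upstream of FGFR1, spread out to 183 kb. In its introns, H3K27ac peaks that shared bases with H3K4me3 stood at 20.03 kb (17.4-fold and 15.2-fold) and at 34.8 kb (13.4-fold and 11.8-fold). The taller peaks at 91.9 kb and 115 kb downstream cover the start sites of LETM2 and NSD3.

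FGFR4 sits among active neighbours, and by mean over pools its 3 tallest surrounding H3K4me3 peaks belong to the start sites of ZNF346, NSD1 and UIMC1. Its own strongest H3K27ac-only peak was intronic, 9.06 kb downstream (scaffold00006_pilon_pilon, 12215510 to 12217239), with 6.57-fold and 7.59-fold in pools 1 and 2. An H3K27ac peak 19.5 kb downstream, just past the last exon, shared bases with H3K4me3 and had 13.6-fold and 21.6-fold. The pool 2 peak there also spans the next pool 1 peak, at 17.4 kb. An H3K4me3 peak of 41.7-fold and 62.0-fold lay in an intron of NSD1, 30.7 kb from the nearest annotated start site, and the H3K27ac peak there had 34.8-fold and 39.2-fold, more than the UIMC1 start site peak (26.3-fold and 25.4-fold).

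The peaks around FGF18 lay mostly to 1 side. Downstream of its start site lay 28 H3K4me3 and 32 H3K27ac peaks, out to 186 kb, against 3 and 7 upstream. FGFR4 had the same lean, with 14 and 21 peaks downstream against 4 and 6 upstream, and so had FGF2, with 13 and 27 against 4 and 10. FGF7 leaned this way on fewer peaks, with 5 and 9 against 2 and 6. At FGFR1 H3K4me3 did so (14 against 7) but H3K27ac did not (17 against 24). FGF9, FGF10 and FGFR2 did not have this lean for either mark. None of the 32 H3K4me3 peaks near FGF18 lacked H3K27ac, which was also true of the 22 near FGFR1. Past the gene the highest was an H3K27ac peak at 123 kb with 14.5-fold and 14.4-fold in pools 1 and 2 (scaffold00006_pilon_pilon, 22120653 to 22122778), which overlaps an H3K4me3 peak of 9.06-fold and 11.6-fold. The nearest upstream peaks belong to NPM1, a nucleolar protein gene, at 12.8 kb, and a 10297-base H3K4me3 peak of 19.1-fold and 18.9-fold covers the start site of TLX3, a homeobox gene of sensory neurons.

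FGF2 had H3K27ac-only peaks mostly outside itself, with 13 of 21 inside other genes and 3 in its own introns. The highest of its own lay 13.1 kb downstream (scaffold00005_pilon_pilon, 24509090 to 24509917), with 6.71-fold and 8.53-fold in pools 1 and 2. SPATA5, farther downstream, held most of those in other genes. At 162 kb upstream, in an intron of IL21, an H3K4me3 peak of 29.8-fold and 29.5-fold overlapped an H3K27ac peak of 24.9-fold and 22.5-fold.

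FGF7 had 3 H3K27ac-only peaks in its own introns, at 26.1, 37.8 and 83.5 kb downstream. The peak at 37.8 kb (scaffold00011_pilon_pilon, 764742 to 765162) had 5.30-fold and 6.19-fold in pools 1 and 2. FAM227B spans FGF7 on the other strand, so these peaks also lie within its body. The tallest peaks of the window, 49.2-fold and 55.0-fold for H3K4me3, cover the start site of DTWD1 at 176 kb.

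FGF10 had 1 H3K27ac-only peak, 81.5 kb upstream, at 3.22-fold and 2.64-fold in pools 1 and 2. Of its 12 H3K4me3 peaks 6 carried no H3K27ac, the most of any of the 8 genes. These were low, at most 7.19-fold in pool 1 and 7.58-fold in pool 2. Within its 145 kb body only 1 H3K27ac peak lay away from the start site, at 103 kb, with 3.69-fold and 3.14-fold.

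FGF9 had no H3K27ac-only peak nearer than 196 kb. That peak had 5.85-fold and 5.69-fold in pools 1 and 2 and lies in an intron of MICU2. Downstream of FGF9, the last peak of either mark began at 1.98 kb, so that the body beyond it and the stretch to 200 kb held none found in both pools. MICU2 has its own start site peak 107 kb upstream, with 38.0-fold and 43.5-fold for H3K4me3.

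**Figure D5:**
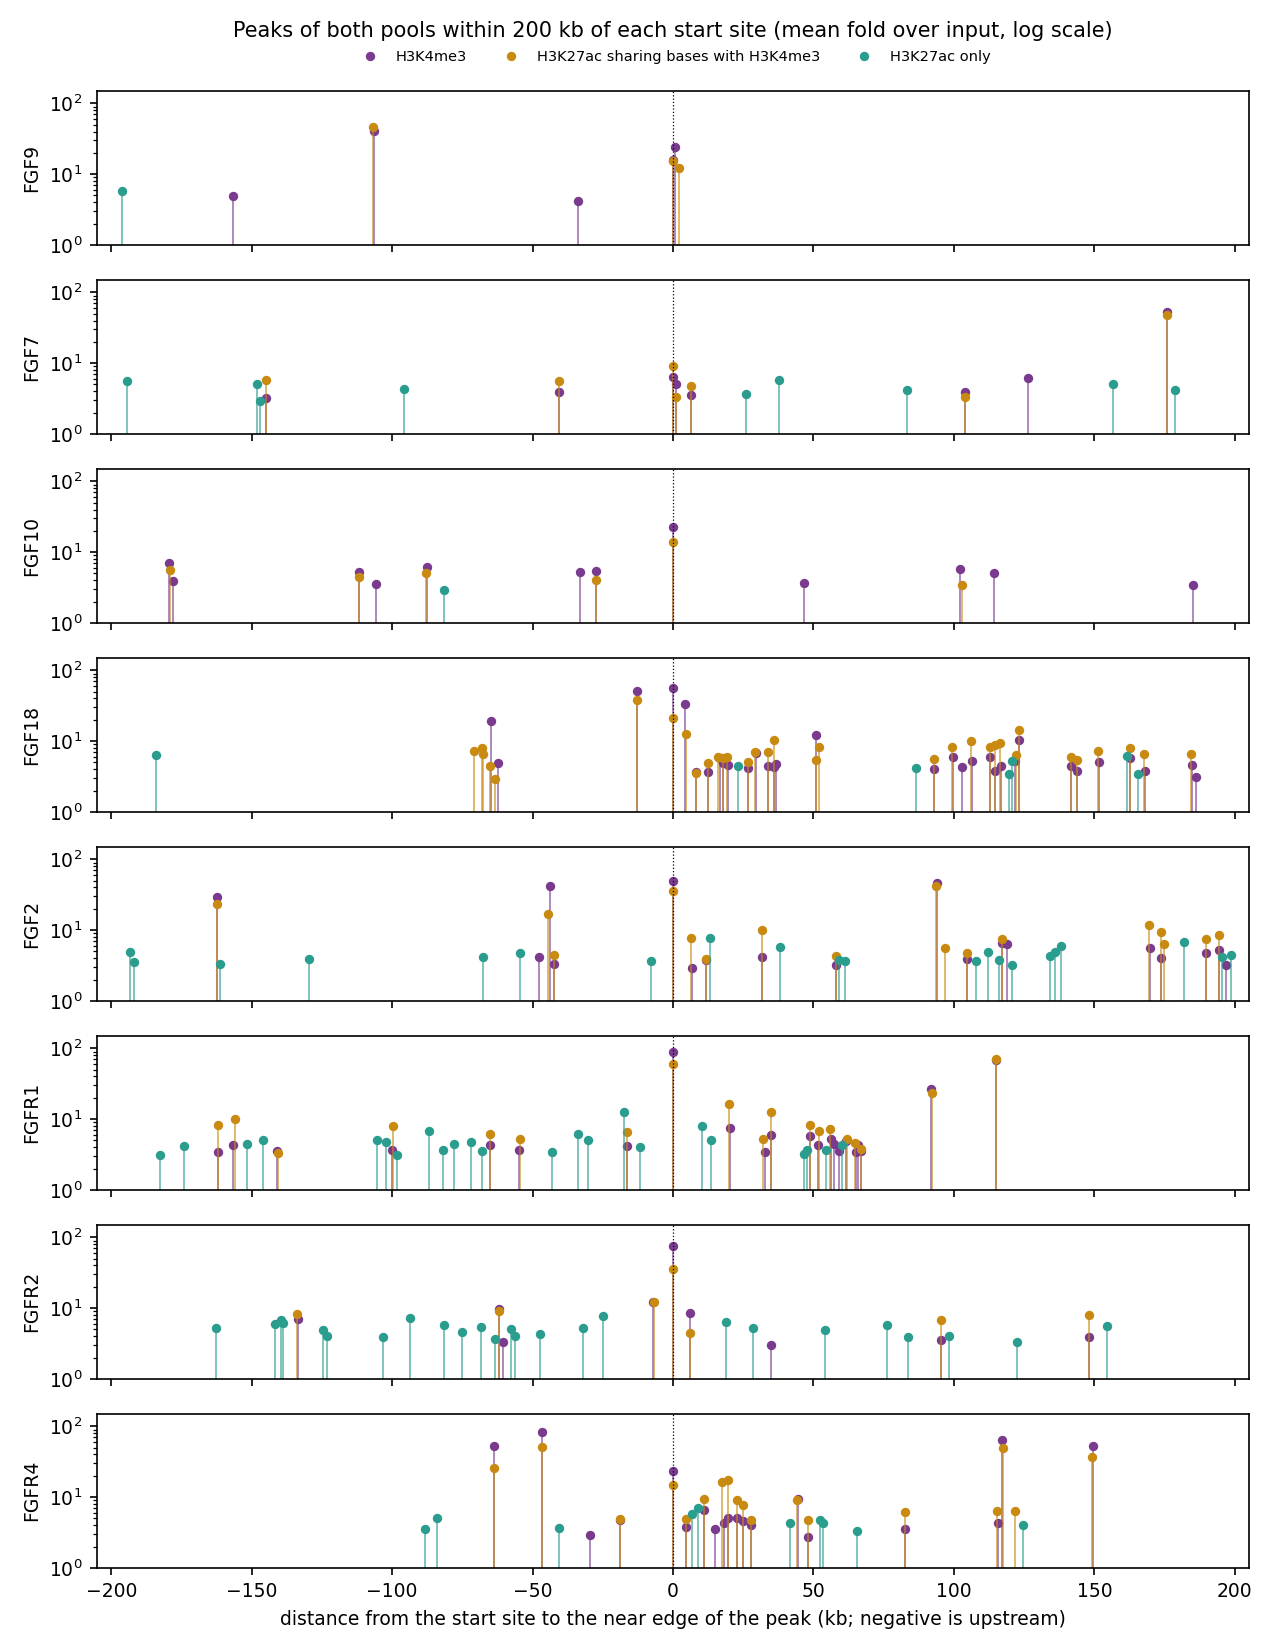
Mean fold over input (log axis) of every peak of both pools against its distance from the start site in kb, negative upstream, 1 panel a gene, coloured by H3K4me3, H3K27ac that shares bases with H3K4me3, and H3K27ac only. FGFR2 and FGFR1 show many H3K27ac-only peaks (25 and 23), FGF18 a run of peaks of both marks downstream, and FGF9 few peaks away from start sites (2 of each mark). FGF10 has 11 H3K4me3 and 6 H3K27ac peaks away from start sites, none with a mean over 7.10-fold.

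Over the 8 windows, 9 of 125 H3K4me3 peaks lay at the member's start site, 11 at another start site and 105 away from any. Those away were low, with a median of 4.36-fold against 50.6-fold at other start sites. Of the 97 H3K27ac-only peaks, 17 had their summit in an intron of the gene itself, 4 in an exon of it, 20 in an intron and 5 in an exon of another gene, and 51 between genes. For 56 of the 97 the member was the nearest start site, and this share was highest for FGF18 (6 of 7), FGFR1 (19 of 23) and FGFR2 (19 of 25). It was 3 of 21 at FGF2.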

How the data were processed

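Faces of newborn dunnarts were profiled by ChIP-seq and RNA-seq. The authors trimmed ChIP reads (cutadapt 1.9.1), aligned them (Bowtie2 2.3.5.1) to their own dunnart assembly, removed duplicates (Picard 2.23.1) and ran MACS2 (2.1.1) for peaks, with each pool's input as control. Their deposited lists hold fold enrichment, a ratio, and -log10 of p and q. RNA reads were aligned by the authors with HISAT2 (2.21), and the deposited table holds unscaled counts per gene over exons (Subread 2.0.1, strand-aware) beside exon length. The precision of RNA values is set by the spread of 3 libraries, and Poisson intervals (95%) cover counting error only. The peak lists carry no read depth, so ChIP depth per sample was not used here. The columns FP1 to FP3 carry no replicate number that ties them to a labelled sample.

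Counts per kilobase of exon, scaled to a common total over 21692 genes, gave TPM. A further 11 models, broken over 2 lines, kept their position but no count. A gene is expressed over 1 TPM in all 3 libraries. A peak is of both pools where a pool 1 peak with q under 0.05 shares at least 50% of either length with such a pool 2 peak, and it keeps the pool 1 interval. Distance runs from the start site to the near edge of a peak, and summits of pool 1 give the place. The named genes are the 8 members, the 2 highest and 2 lowest of each pathway list, and neighbouring genes as landmarks (GPC1 was added after its values were seen). The splice regulators and the markers RAX, COL2A1, TWIST1, PRRX1, PDGFRA, MSX1 and DLX5 are named with them, the markers after their values were seen. The members and lists were chosen with earlier results of these data known. Interval and TPM steps were tested on simulated data. Alternatives were TMM factors, filters, overlap, q and window limits, and leaving out each library or pool. TMM factors came from edgeR (4.0.16) in R (4.3.3). All else ran in Python (3.11.15) on pandas (2.3.3), numpy (2.4.6) and scipy (1.17.1), with figures by matplotlib (3.10.9).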

Additional observations from a re-analysis of the deposited data

How the results depend on the processing

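Of 90 alternatives, 80 left their value within 1 SD over libraries (for counts, within 1.5 times). For TPM levels, the log2 ratio and the FGFR1 share, leaving out 1 of 3 libraries cannot move the mean by 1 SD. TMM factors cancel in the log2 ratio. These outcomes were fixed in advance and say nothing of stability. No direction could turn, since levels, shares and counts are never negative and the log2 ratio was negative in each library. Levels of the 8 genes kept within 1 SD with TMM factors and, for the 7 that pass it, with a filter of 10 counts in every library, which FGF2 fails. Neither is a strong check. The TMM factors lie on both sides of 1 (0.970, 1.14 and 0.900 in FP1, FP2 and FP3), so they move a mean over libraries little. The filter rescales all genes of a library alike. FGF18 counted as mesenchymal moved the mean log2 ratio of epithelial over mesenchymal ligand to -1.67. Narrower windows lowered the peak counts by construction: within 100 kb there were 80 H3K4me3, 129 H3K27ac and 56 H3K27ac-only peaks, and within 50 kb 55, 71 and 24. Peaks whose nearest start site is the member numbered 74, 122 and 56. Leaving out a library gave between 7 and 8 expressed genes, a log2 ratio between -0.74 and -0.37 and an FGFR1 share between 46.3% and 52.1%. Each pool alone gave between 170 and 178 H3K4me3, between 249 and 273 H3K27ac and between 104 and 126 H3K27ac-only peaks. The ratio with FGF8 alone as epithelial ligand has no value, since FGF8 has no row. No paired analysis was possible because there are no groups of samples to pair, all being of 1 condition, and genes were compared by ratios within a library. Counting error was widest for FGF2, which rests on 6, 45 and 18 counts.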
